A study of Mus musculus with 7 samples.

Results

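The genes described here encode 5 systems of cues and receptors that steer growing axons and migrating neurons, which are the ephrins and their Eph receptors, the netrins with the receptors DCC, neogenin and UNC5, the netrin-G proteins, the Slits with the Robo receptors and the srGAP proteins, and the chemokine CXCL12 with its receptor CXCR4. They were taken by symbol from a list of 42 genes. Of these, 41 had a probe set annotated to a single gene on the array, and *Ephb2* was not analysed here. Of 90 such probe sets, 70 from 39 genes reached an intensity of 50 on at least 1 array and were tested, beside 22748 tested probe sets and 12315 genes in all. Another 19 stayed below 50 on all arrays, which left *Robo2* and *Robo3* with no tested probe set, and 1 of *Neo1* was left out for a name that marks probes shared with other transcripts.

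RNA was measured on Affymetrix arrays in primary neuron cultures from the cortex of C57/Bl6J mouse embryos at embryonic day 16, taken at 16 days in vitro. The luciferase group (n = 4 arrays) had received lentivirus with an H1 promoter that drives a short hairpin against luciferase, a gene mice do not have, on day 2 of culture, with 6 hours of contact and a multiplicity of infection of 3; the vector also carries GFP. The blank group (n = 3) was left untransduced, and 1 further blank culture had been left out by the authors for quality. Both groups share strain, tissue, age and array, and the comparison asks what transduction with a control hairpin does to these genes, with hairpin, virus, GFP and the handling of transduction in the same cultures, so that their parts cannot be told apart. No separate litters or culture days are named for the replicates, so the p-values reflect how far these samples spread, and that spread may be technical.

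Eph receptors are receptor tyrosine kinases that bind ephrins on neighbouring cells. EphA receptors mainly bind ephrin-A proteins, which are held in the membrane by a lipid anchor, and EphB receptors mainly bind the transmembrane ephrin-B proteins; contact often repels a growth cone, and in mature cortex the same proteins act at synapses and between neurons and astrocytes. Netrin-1 attracts axons through DCC and repels them through UNC5 receptors, Slits repel axons through Robo receptors, and CXCL12 attracts migrating interneurons and Cajal-Retzius cells through CXCR4.

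The promoters of the 3 genes that changed at least 1.5-fold on the probe set of highest level, *Epha6*, *Cxcl12* and *Srgap1*, and of *Epha4*, which was higher on every probe set, show what the starts of these genes hold. Each run covers 250 bases before to 50 bases after the gene's start in RefSeq (GRCm38.p6), read 5′ to 3′ on the gene's strand, and capitals mark matches to GGGCGG on either strand, the GC box that Sp1 family factors bind. They lie at chr16:60605482-60605781 (minus strand, *Epha6*), chr1:77515039-77515338 (minus strand, *Epha4*), chr6:117168285-117168584 (plus strand, *Cxcl12*) and chr10:122047266-122047565 (minus strand, *Srgap1*).
Epha6: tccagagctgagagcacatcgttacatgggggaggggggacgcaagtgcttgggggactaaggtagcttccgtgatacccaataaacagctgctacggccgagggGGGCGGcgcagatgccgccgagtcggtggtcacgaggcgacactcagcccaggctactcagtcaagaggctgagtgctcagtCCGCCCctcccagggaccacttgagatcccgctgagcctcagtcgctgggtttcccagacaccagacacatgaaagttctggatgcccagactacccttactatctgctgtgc
Epha4: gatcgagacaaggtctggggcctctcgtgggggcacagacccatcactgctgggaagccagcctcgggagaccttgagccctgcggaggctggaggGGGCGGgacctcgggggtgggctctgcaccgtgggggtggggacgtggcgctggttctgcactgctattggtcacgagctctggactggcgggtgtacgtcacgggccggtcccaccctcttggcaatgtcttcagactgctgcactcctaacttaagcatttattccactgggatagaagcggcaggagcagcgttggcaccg
Cxcl12: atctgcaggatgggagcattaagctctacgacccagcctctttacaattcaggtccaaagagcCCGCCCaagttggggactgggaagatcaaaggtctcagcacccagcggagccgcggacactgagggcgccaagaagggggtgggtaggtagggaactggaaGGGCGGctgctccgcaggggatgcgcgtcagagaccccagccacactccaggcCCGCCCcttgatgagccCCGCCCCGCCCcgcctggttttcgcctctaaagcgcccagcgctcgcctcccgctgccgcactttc
Srgap1: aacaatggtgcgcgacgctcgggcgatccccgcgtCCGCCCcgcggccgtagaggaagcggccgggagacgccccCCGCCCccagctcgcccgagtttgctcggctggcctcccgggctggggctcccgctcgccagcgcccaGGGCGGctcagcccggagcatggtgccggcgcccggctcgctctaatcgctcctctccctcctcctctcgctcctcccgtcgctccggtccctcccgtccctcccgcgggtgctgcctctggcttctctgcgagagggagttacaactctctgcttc

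Of the 4 promoters, that of *Epha4* holds 1 match, that of *Epha6* 2, that of *Srgap1* 3 and that of *Cxcl12* 5, of which the last pair overlap. Promoters were found for 34 of the 39 tested genes, 37 in all. A GC box lay in 27 of the 34 genes and in 30 of the 37 promoters, against 35.66% of 32851 RefSeq promoters of the same length. The median G and C content of the 37 was 64.7%, against 52.7% over all promoters. TATAAA was found on either strand in 4 genes (13.62% of all promoters), the cAMP response element TGACGTCA in *Epha2* alone (1.79%) and the AP-1 motif TGANTCA in 0 of the 34 (7.81%). The genes that were higher, lower and neither are mixed among those with a GC box, which include *Srgap1*, *Cxcl12* and *Slit2*. These are matches of letters and say nothing of binding in the cultures.

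Levels below are RMA intensities on a linear scale, and each probe set is set only against itself in the other group, since probe sets differ in how strongly they bind. A gene is given by its probe set of highest mean level, and passing the test means an adjusted p of at most 0.05 from limma over all 22748 probe sets. By this measure 13 of the 39 genes were higher in luciferase neurons (33.3%, against 16.9% of all genes), 3 were lower (7.69%, against 8.55%) and 23 did not pass; in either direction 25.4% of all genes passed. The higher genes were *Epha3*, *Epha4*, *Epha5*, *Epha6*, *Epha8*, *Efna1*, *Efna2*, *Efnb3*, *Ntn4*, *Unc5c*, *Robo1*, *Cxcl12* and *Cxcr4*, and the lower ones were *Ntng2*, *Dcc* and *Srgap1*. By role, 8 of 20 receptors, 5 of 16 ligands and 0 of 3 srGAP effectors were higher, and 1 of each was lower. The median log2 change was 0.13 over the 39 genes, against 0.057 over all genes.

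The level filter bears on 6 of these genes, which reached 50 in one group only. These are *Efna1* and *Cxcr4* in luciferase neurons and *Epha2*, *Ephb4*, *Efna4* and *Ntng2* in blank neurons. For them a linear fold is left out, and the log2 changes given are set against levels near or under the limit, so that their tests support no statement on a family here. Among the 33 genes that reached 50 in both groups, 11 were higher and 2 were lower. The share over all genes was not counted under this stricter rule, so 16.9% and 8.55% are no like measure for these counts. Just inside the filter lay *Ephb4*, *Efna4* and *Epha2* with highest levels of 53.3, 54.2 and 54.97, and just outside it lay second probe sets of *Ntn4*, *Srgap3* and *Ntng1* with 48.4, 45.9 and 44.6.

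The count of higher genes leans on single arrays and on the scaling. Leaving out luciferase replicate 1 gave 8 higher genes (with 11.6% of all genes higher), leaving out luciferase replicate 3 gave 7 (11.9%), leaving out blank replicate 5 gave 7 (9.31%) and leaving out blank replicate 6 gave 6 (9.02%). After median centring of the arrays, 8 genes were higher and 5 lower, against 9.42% and 15.8% of all genes.

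The cultures hold more than neurons, and in bulk RNA fewer cells of a type and less RNA per cell cannot be told apart. Of 11 tested astrocyte markers, 6 were higher, 0 lower and 5 did not pass. Their summed level ran from 31390 to 34109 on luciferase arrays and from 24099 to 26595 on blank arrays. Of the 6, 3 were higher by 1.5-fold or more (2.6% of all genes were), *Gfap* (2.28-fold), *Aldh1l1* (1.82-fold) and *Aqp4* (1.77-fold). *Gjb6* was below 50 on all arrays. Progenitor and proliferation markers summed to 5984 to 6794 in luciferase neurons and 5152 to 5486 in blank neurons (2 of 8 higher, 0 lower, *Eomes* below 50). Vascular and meningeal markers summed to 796 to 1049 in luciferase neurons and 1280 to 1406 in blank neurons (1 of 7 higher, 3 lower). *Dcn*, a proteoglycan of fibroblasts, made most of that gap, with 346.9 to 540.2 in luciferase neurons and 760.4 to 939.6 in blank neurons; without it, a sum chosen after the values were seen, the other 6 gave 449 to 508 in luciferase neurons and 467 to 520 in blank neurons, which overlap. *Pdgfrb* was higher, and *Pecam1*, *Cldn5*, *Cdh5*, *Tek*, *Col1a1* and *Col3a1* were below 50. Neuron markers were present, as all 12 on the array reached 50, and their sums overlapped between luciferase neurons (32527 to 34186) and blank neurons (32119 to 35159; 2 higher, 1 lower). Oligodendrocyte lineage markers summed to 6484 to 7771 in luciferase neurons and 6824 to 7012 in blank neurons (1 of 9 higher, 1 lower, *Mog* and *Mobp* below 50). Of 12 microglia markers, 9 were below 50 on all arrays, *Cx3cr1*, *P2ry12*, *Tmem119* and *Aif1* among them, and the other 3 summed to 225 to 257 in luciferase neurons and 252 to 325 in blank neurons. Over all genes, 16.9% were higher and 8.55% lower. The share higher was 54.5% of astrocyte, 25.0% of progenitor, 16.7% of neuron, 14.3% of vascular, 11.1% of oligodendrocyte and 0% of microglia markers. The share lower was 42.9% of vascular, 11.1% of oligodendrocyte and 8.33% of neuron markers, and 0% of the others. The part of the marker shifts in the results for the guidance genes was not tested.

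**Figure D1:**
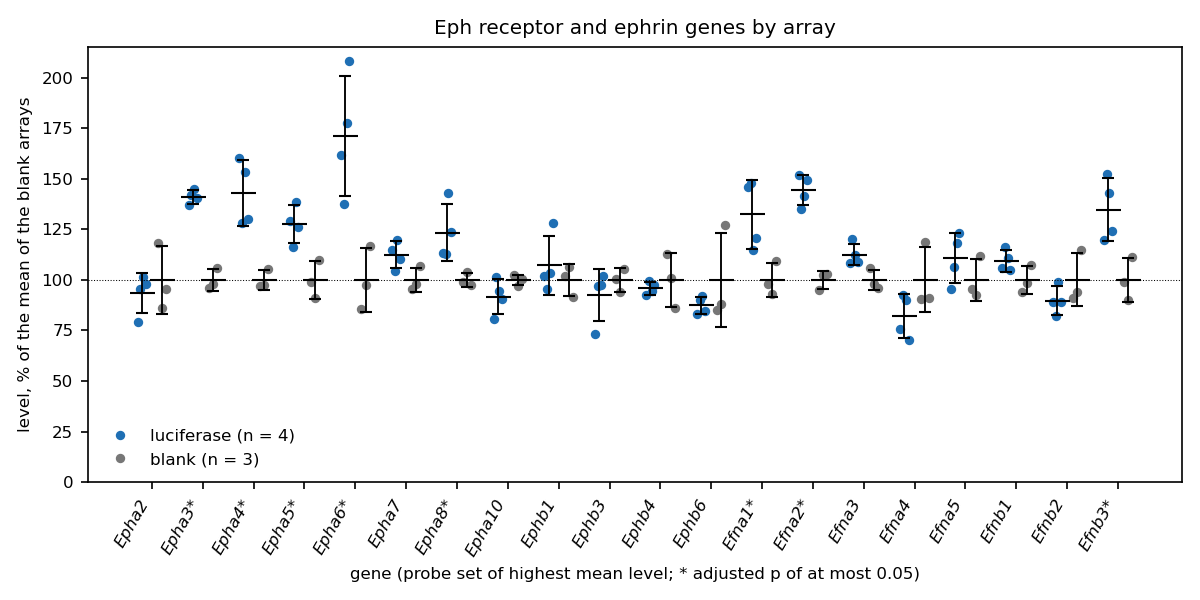
Level of each Eph receptor and ephrin gene on each array in % of its blank mean, for luciferase neurons (blue, n = 4) and blank neurons (grey, n = 3). Points are arrays, bars give mean ± SD, and an asterisk marks an adjusted p of at most 0.05; the luciferase arrays lie above the blank arrays in the 5 EphA receptors and 3 ephrins so marked.

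Most of the probe sets that passed at 1.5-fold or more belonged to EphA receptors. Of 8 EphA genes, *Epha3*, *Epha4*, *Epha5*, *Epha6* and *Epha8* were higher, none passed in the lower direction, and their median log2 change was 0.33. All 4 EphB genes tested failed to pass, with log2 changes from -0.17 to 0.09. Over the 70 probe sets of all families, 13 were higher at 1.5-fold or more (18.6%, against 2.9% of all probe sets), 1 was lower (1.43%, against 1.29%), and 11 of the 13 belonged to EphA receptors. These 11 come from 5 genes, and probe sets of one gene are not independent. EphA receptors also hold 20 of the 70 tested probe sets. By the probe set of highest level, 2 genes of the list were higher at 1.5-fold or more, of which *Epha6* was the 1 EphA gene. Whether EphA and EphB receptors differ as groups was not tested.

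*Epha4* encodes a receptor that binds ephrins of both classes and acts in the corticospinal tract and on dendritic spines. Its probe set of highest level, 1429021_at, read 733, 586, 701 and 595 in luciferase neurons, against 444, 445 and 483 in blank neurons. The log2 change was 0.51 (standard error, SE, 0.098, adjusted p = 0.007 from limma), or 1.42-fold, with no overlap between the groups. The other 4 probe sets were higher by more, 1.62-fold to 1.75-fold. The largest difference was on 1421929_at, with 639, 570.1, 618 and 668 in luciferase neurons and 439, 294 and 351 in blank neurons (log2 change 0.80, SE 0.13, adjusted p = 0.0031 from limma). The other 3 gave log2 changes of 0.70, 0.76 and 0.78, so all 5 of 5 probe sets were higher.

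*Epha3*, a receptor for ephrin-A5 among others, was higher on 3 of 3 probe sets. The brightest read 296, 306, 314 and 303 in luciferase neurons and 208, 212 and 229 in blank neurons (305 ± 7.19, n = 4, and 216 ± 11.4, n = 3, SD; log2 change 0.50, adjusted p = 0.002 from limma). On 1425575_at the luciferase arrays read 119, 115, 137 and 121 and the blank arrays 72.5, 76.9 and 73.3, which is 1.65-fold (adjusted p = 7.0e-04 from limma). On 1425574_at the luciferase arrays read 74.7, 89.2, 70.1 and 93.5 and the blank arrays 50.2, 54.8 and 40.3, which is 1.69-fold (adjusted p = 0.0049 from limma). No luciferase array fell within the blank range on any of the 3.

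*Epha5*, a receptor of the forebrain, was higher on 3 of 4 probe sets. On the brightest, 1437920_at, the luciferase arrays read 1843, 1661, 1979 and 1798 and the blank arrays 1412, 1302 and 1564, a 1.28-fold difference (log2 change 0.35, SE 0.09, adjusted p = 0.022 from limma). This call was lost without luciferase replicate 1 or 3 or blank replicate 5 or 6 (adjusted p = 0.051, 0.058, 0.065 and 0.08 from limma). On 1435286_at, 1318, 1176, 1338 and 1309 in luciferase neurons stood against 728, 793 and 863 in blank neurons, or 1.62-fold (adjusted p = 0.001 from limma). The dimmest, 1420557_at, gave 100.1, 85.8, 116 and 119 in luciferase neurons against 61.8, 74.5 and 57.05 in blank neurons (1.63-fold, adjusted p = 0.0067 from limma). The remaining one, 1444690_at, had a log2 change of 0.25 and an adjusted p of 0.06 from limma, although its groups did not overlap either.

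*Epha6* has 1 tested probe set, which had the largest log2 change among the 39 genes by the probe sets that stand for them. Its luciferase arrays read 119.8, 102, 131 and 154 and its blank arrays 63.4, 71.9 and 86.4 (log2 change 0.77, 95% interval 0.44 to 1.10, adjusted p = 0.0069 from limma). Replicate 4 is the highest luciferase array and replicate 7 the highest blank array, and a gap remains between the groups. *Epha8*, a receptor of the midbrain and its projections, read 84.5, 84.3, 107 and 92.4 in luciferase neurons and 73.7, 77.4 and 72.5 in blank neurons. Its log2 change of 0.30 only just passed (adjusted p = 0.047 from limma), and the call was lost without any single array of the 7, with an adjusted p from 0.053 without luciferase replicate 2 to 0.119 without blank replicate 5, and at 0.176 after median centring. It was lost with no filter on level, quantile normalization, trend and robust in eBayes and log2(value + 16) too.

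*Epha7*, which has a truncated form known to promote adhesion in the mouse neural tube, passed on 3 of 4 probe sets but not on the brightest, which read 403, 366, 421 and 388 in luciferase neurons and 334, 343 and 374 in blank neurons (log2 change 0.17, adjusted p = 0.144 from limma). On 1451991_at the luciferase arrays read 357, 299, 359 and 296 and the blank arrays 202, 195 and 233 (1.56-fold, adjusted p = 0.0035 from limma). On 1443485_at they read 375, 329, 357 and 392, against 212, 266 and 242 in blank neurons (1.52-fold, adjusted p = 0.0035 from limma). On 1427528_a_at they read 371, 339, 347 and 362, against 263, 262 and 265 in blank neurons (log2 change 0.43, adjusted p = 0.0033 from limma). The groups overlap on the first and are apart on the others. The probe sets of a gene read different stretches of its transcripts, and whether isoforms differ was not tested.

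**Figure D2:**
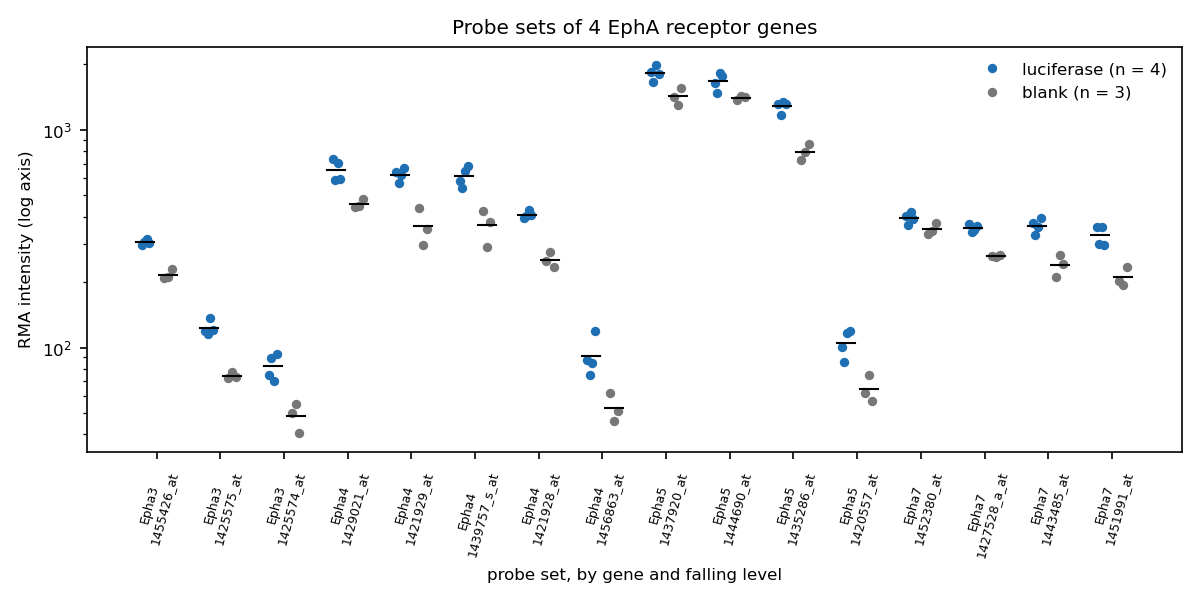
RMA intensity (log axis) of every tested probe set of *Epha3*, *Epha4*, *Epha5* and *Epha7* on each array, for luciferase neurons (blue, n = 4) and blank neurons (grey, n = 3); lines give group means. In each gene the brightest probe set or the one after it shows the narrowest gap between groups.

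The remaining EphA genes did not pass. *Epha2* lay near the level limit in both groups (36.8 to 46.96 in luciferase neurons, 39.9 to 54.97 in blank neurons), and *Epha10*, whose protein lacks kinase activity, had a log2 change of -0.13 (95% interval -0.33 to 0.07). Of the EphB genes, *Ephb1* had a log2 change of 0.09 (95% interval -0.15 to 0.34), *Ephb3* of -0.12 (-0.39 to 0.14) and *Ephb4* of -0.05 (-0.27 to 0.16). *Ephb6*, another receptor without kinase activity, read 239.9, 259, 265 and 243 in luciferase neurons and 244, 254 and 365 in blank neurons (log2 change -0.17, 95% interval -0.47 to 0.13). Only blank replicate 7 stands apart there.

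Of the Eph receptor genes, the number higher was 3 instead of 5 without luciferase replicate 1 or 3 or blank replicate 5 or 6. With quantile normalization, and after median centring, it was 4, as *Epha8* was lost. The count of EphA probe sets higher at 1.5-fold or more was 11 of 20 here, 9 under either scaling and 10 or 11 without any single array.

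Among the ephrin ligands, *Efna1*, *Efna2* and *Efnb3* were higher. Of 8 ephrin genes, 3 were higher, 0 lower and 5 did not pass, against 16.9% of all genes higher, and 0 of 15 probe sets were past the test at 1.5-fold (2.9% of all probe sets were). *Efna1* reached 50 in luciferase neurons only, so its call supports no statement on the family, which leaves *Efna2* and *Efnb3* as the higher genes. *Efna2*, a lipid-anchored ligand known for its gradient in the visual map, was higher on both of its probe sets. The brighter one read 462, 411, 430.1 and 454 in luciferase neurons and 289, 311 and 312 in blank neurons (log2 change 0.53, SE 0.075, adjusted p = 0.002 from limma), which is 1.44-fold. The dimmer one read 85.7, 106, 99.3 and 98.8 in luciferase neurons and 79.7, 75.9 and 69.1 in blank neurons (log2 change 0.38, adjusted p = 0.018 from limma), and its call was lost after median centring (0.065). The groups are apart on both.

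*Efnb3*, a transmembrane ligand that keeps axons from crossing the spinal midline in mice, read 2009, 2553, 2401 and 2079 in luciferase neurons and 1657, 1508 and 1865 in blank neurons. The log2 change was 0.43 (SE 0.11, adjusted p = 0.021 from limma), but the call was lost without luciferase replicate 2 or 3 (adjusted p = 0.051 and 0.058) and without blank replicate 5 or 6 (0.062 and 0.079). *Efna1* was dim, at 60.6, 61.3, 47.6 and 50.1 in luciferase neurons and 40.6, 38.5 and 45.2 in blank neurons (log2 change 0.40, adjusted p = 0.029 from limma). Its highest blank array lies just under its lowest luciferase array. Its call was lost without luciferase replicate 1 or 2 or blank replicate 5 or 6 (adjusted p from 0.069 to 0.099 from limma) and after median centring (0.056). Without luciferase replicate 2, blank replicate 5 or blank replicate 6, 1 of the 8 ephrin genes was higher.

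*Efna3* and *Efnb1* passed on another probe set than the brightest. For *Efna3* the brightest read 679, 752, 702 and 682 in luciferase neurons and 662, 614 and 601 in blank neurons (log2 change 0.17, adjusted p = 0.122 from limma). Its other probe set read 296, 317, 309.6 and 314 in luciferase neurons and 245, 242 and 274 in blank neurons (log2 change 0.29, adjusted p = 0.023 from limma). The groups are apart on both, but this call was lost without luciferase replicate 2, 3 or 4 or blank replicate 5 or 6 (adjusted p from 0.053 to 0.082) and with no filter on level, quantile normalization or median centring. For *Efnb1* the dimmest of 3 probe sets passed, with 148, 146, 152 and 136 in luciferase neurons and 109.6, 98.3 and 116 in blank neurons (log2 change 0.43, adjusted p = 0.0068 from limma), while the others had log2 changes of 0.13 and 0.20. *Efna5* had a log2 change of 0.15 (95% interval -0.09 to 0.39), and the dim *Efna4* one of -0.28 (-0.57 to 0.01). *Efnb2*, whose protein also marks arteries, had 4 probe sets with log2 changes from -0.25 to 0.08, of mixed sign and none past the test.

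**Figure D3:**
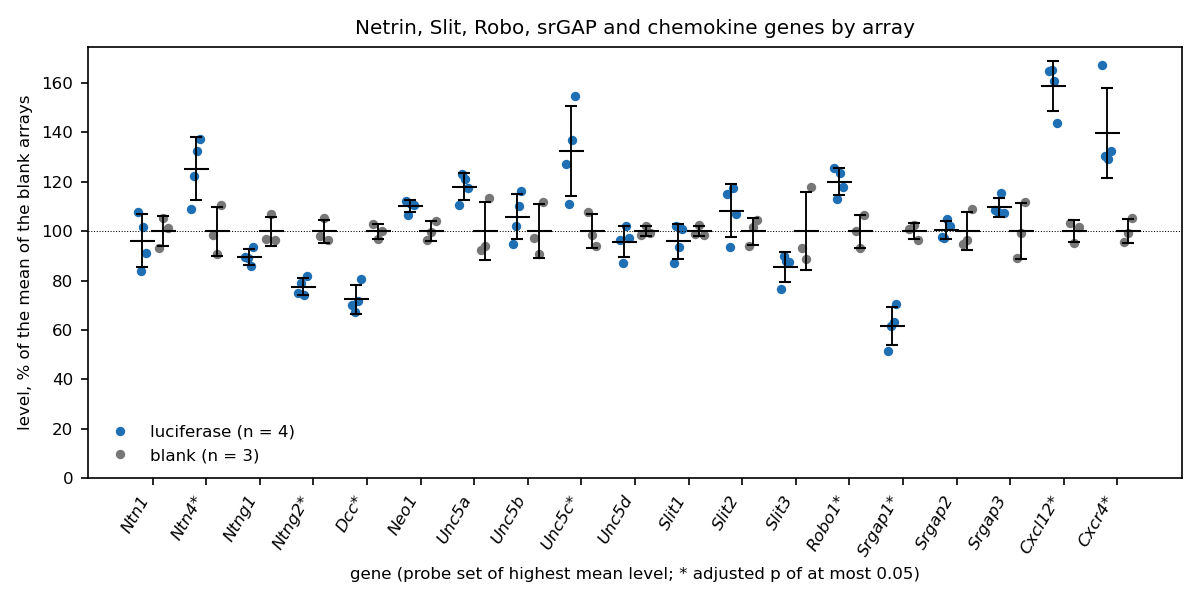
Level of each netrin, netrin receptor, Slit, Robo, srGAP and chemokine gene on each array in % of its blank mean, for luciferase neurons (blue, n = 4) and blank neurons (grey, n = 3). Points are arrays, bars give mean ± SD, and an asterisk marks an adjusted p of at most 0.05; *Srgap1*, *Dcc* and *Ntng2* lie below the blank arrays, and *Cxcl12* and *Cxcr4* above them.

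Of the 10 genes of netrins, netrin-G proteins and netrin receptors, *Ntn4* and *Unc5c* were higher, *Ntng2* and *Dcc* were lower and 6 did not pass. *Ntng2* reached the level limit in blank neurons only, so its call supports no statement on the family, which leaves *Dcc* as the lower gene. Among the 6 receptors, 16.7% passed in each direction, against 16.9% higher and 8.55% lower over all genes. *Dcc*, the receptor through which netrin-1 attracts axons, was lower, with 281, 269, 287 and 323 in luciferase neurons and 413, 388 and 402 in blank neurons on its brightest probe set. The log2 change was -0.47 (SE 0.081, adjusted p = 0.0047 from limma), which puts blank neurons 1.38-fold higher. A second probe set read 209.7, 159.8, 201 and 249 in luciferase neurons and 255, 258 and 251 in blank neurons (log2 change -0.33, adjusted p = 0.089 from limma). All luciferase arrays lie below all blank arrays on both, with replicate 4 close to the blank range on the second. The third and dimmest probe set gave a log2 change of 0.08 with overlapping groups.

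*Unc5c*, a receptor of repulsion by netrin-1, was higher, with 455, 397, 489 and 552 in luciferase neurons and 384, 351 and 336 in blank neurons (log2 change 0.40, SE 0.11, adjusted p = 0.031 from limma). Its second probe set had a log2 change of 0.41 and missed the threshold (adjusted p = 0.055 from limma). The call on the first was lost with quantile normalization, after median centring and without luciferase replicate 1, 3 or 4 or blank replicate 6 or 7 (adjusted p from 0.054 to 0.095 from limma). *Neo1*, which encodes neogenin, a relative of DCC that also binds RGM proteins, read 2481, 2357, 2454 and 2445 in luciferase neurons and 2129, 2200.0 and 2304 in blank neurons on its brightest probe set (log2 change 0.14, adjusted p = 0.161 from limma). Its other probe set passed, with 974, 1125, 1129 and 1223 in luciferase neurons and 941, 852 and 859 in blank neurons (log2 change 0.33, adjusted p = 0.029 from limma), but the call was lost without luciferase replicate 2, 3 or 4 or blank replicate 6 (adjusted p from 0.065 to 0.09) and with no filter on level, quantile normalization or median centring. *Unc5a*, *Unc5b* and *Unc5d* did not pass, with log2 changes of 0.24, 0.08 and -0.06.

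Among the ligands, *Ntn1*, the attractant itself, had a log2 change of -0.06 (95% interval -0.28 to 0.16). *Ntn4*, a netrin related to laminins and found in basement membranes, read 168, 189, 205 and 212 in luciferase neurons and 152, 140.4 and 171 in blank neurons. It passed narrowly (log2 change 0.33, adjusted p = 0.046 from limma) although luciferase replicate 1 lies below blank replicate 7, and the call was lost without luciferase replicate 2, 3 or 4 or blank replicate 5 or 6 (adjusted p from 0.081 to 0.152), with no filter on level and under both scalings. It is the only one of the 13 higher genes whose groups overlap. *Ntng2*, a lipid-anchored netrin-G that acts at synapses, was lower, with 45.6, 47.97, 45.1 and 49.7 in luciferase neurons and 59.7, 63.98 and 58.7 in blank neurons (log2 change -0.37, adjusted p = 0.008 from limma). Its luciferase arrays all read below 50. Its relative *Ntng1* lay in the same direction on its brightest probe set, at 225, 224, 215 and 235 in luciferase neurons and 243, 268 and 242 in blank neurons, without passing (log2 change -0.16, adjusted p = 0.144 from limma). On these probe sets both genes were lower with quantile normalization and after median centring, where 12.5% and 15.8% of all genes were lower. The other tested probe set of *Ntng1* had a log2 change of -0.09 with overlapping groups (adjusted p = 0.455 from limma). It passed under no alternative.

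In the Slit system a receptor and an effector passed the test, and the ligands did not. *Slit1*, *Slit2* and *Slit3*, the secreted ligands, had log2 changes of -0.06 (95% interval -0.24 to 0.12), 0.11 (-0.10 to 0.32) and -0.22 (-0.46 to 0.03), and none passed. *Slit3* passed as lower with quantile normalization (adjusted p = 0.048 from limma) and after median centring (0.041). The dimmer probe set of *Slit1* (log2 change -0.21, adjusted p = 0.185 from limma) passed as lower in the same 2 settings. There 12.5% and 15.8% of all genes were lower. *Robo1*, the one Slit receptor with tested probe sets, was higher on both of them. The brighter read 842, 758, 827 and 791 in luciferase neurons and 671, 624 and 714 in blank neurons (log2 change 0.27, adjusted p = 0.035 from limma), and it lost the call without luciferase replicate 1, 3 or 4 or blank replicate 5 or 6 (adjusted p from 0.063 to 0.119) and with no filter on level, quantile normalization or median centring. The other read 326, 332, 394 and 443 in luciferase neurons and 222, 237 and 249 in blank neurons, a 1.57-fold difference (log2 change 0.65, SE 0.11, adjusted p = 0.0048 from limma), and it passed under every alternative.

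*Srgap1* encodes a GTPase-activating protein that binds Robo receptors. It was the one gene of the list lower by 1.5-fold or more (genes of this kind were 1.46% of all genes). Its luciferase arrays read 293, 349.6, 359.8 and 401 and its blank arrays 574, 584 and 548 (351 ± 44.5, n = 4, and 569 ± 18.3, n = 3, SD). The log2 change was -0.71 (SE 0.1, 95% interval -0.94 to -0.47, adjusted p = 0.0024 from limma), and blank neurons were 1.63-fold higher. The highest luciferase array stays well under the lowest blank array, and the call held under every alternative. Its relatives *Srgap2* and *Srgap3*, which act on filopodia and spines, did not pass, with log2 changes of 0.01 (95% interval -0.16 to 0.18) and 0.14 (-0.06 to 0.34). The difference between *Srgap1* and its relatives was not tested.

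*Cxcl12*, the chemokine ligand, was higher on its brightest probe set. It read 644, 647, 629 and 562 in luciferase neurons and 405, 372 and 397 in blank neurons (621 ± 39.6, n = 4, and 391 ± 17.1, n = 3, SD). The log2 change was 0.66 (SE 0.079, adjusted p = 9.0e-04 from limma), or 1.58-fold, and with *Epha6* it makes 2 genes higher at 1.5-fold or more on the probe set of highest level (2.6% of all genes were). A second, dim probe set lay the other way, at 55.9, 47.3, 48.7 and 56.2 in luciferase neurons and 57.8, 62.9 and 59.5 in blank neurons (log2 change -0.21, adjusted p = 0.106 from limma). It passed in the lower direction after median centring (log2 change -0.31, adjusted p = 0.038 from limma), while the bright one stayed higher. The direction for *Cxcl12* thus rests on the bright probe set. *Cxcr4*, its receptor, was dim, with 63.2, 49.3, 48.8 and 50.03 in luciferase neurons and 36.1, 37.5 and 39.7 in blank neurons (log2 change 0.48, SE 0.1, adjusted p = 0.011 from limma). All blank arrays lie under 50, so the gene was tested only because of its level in luciferase neurons, and luciferase replicate 1 stands above the other 3.

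**Figure D4:**
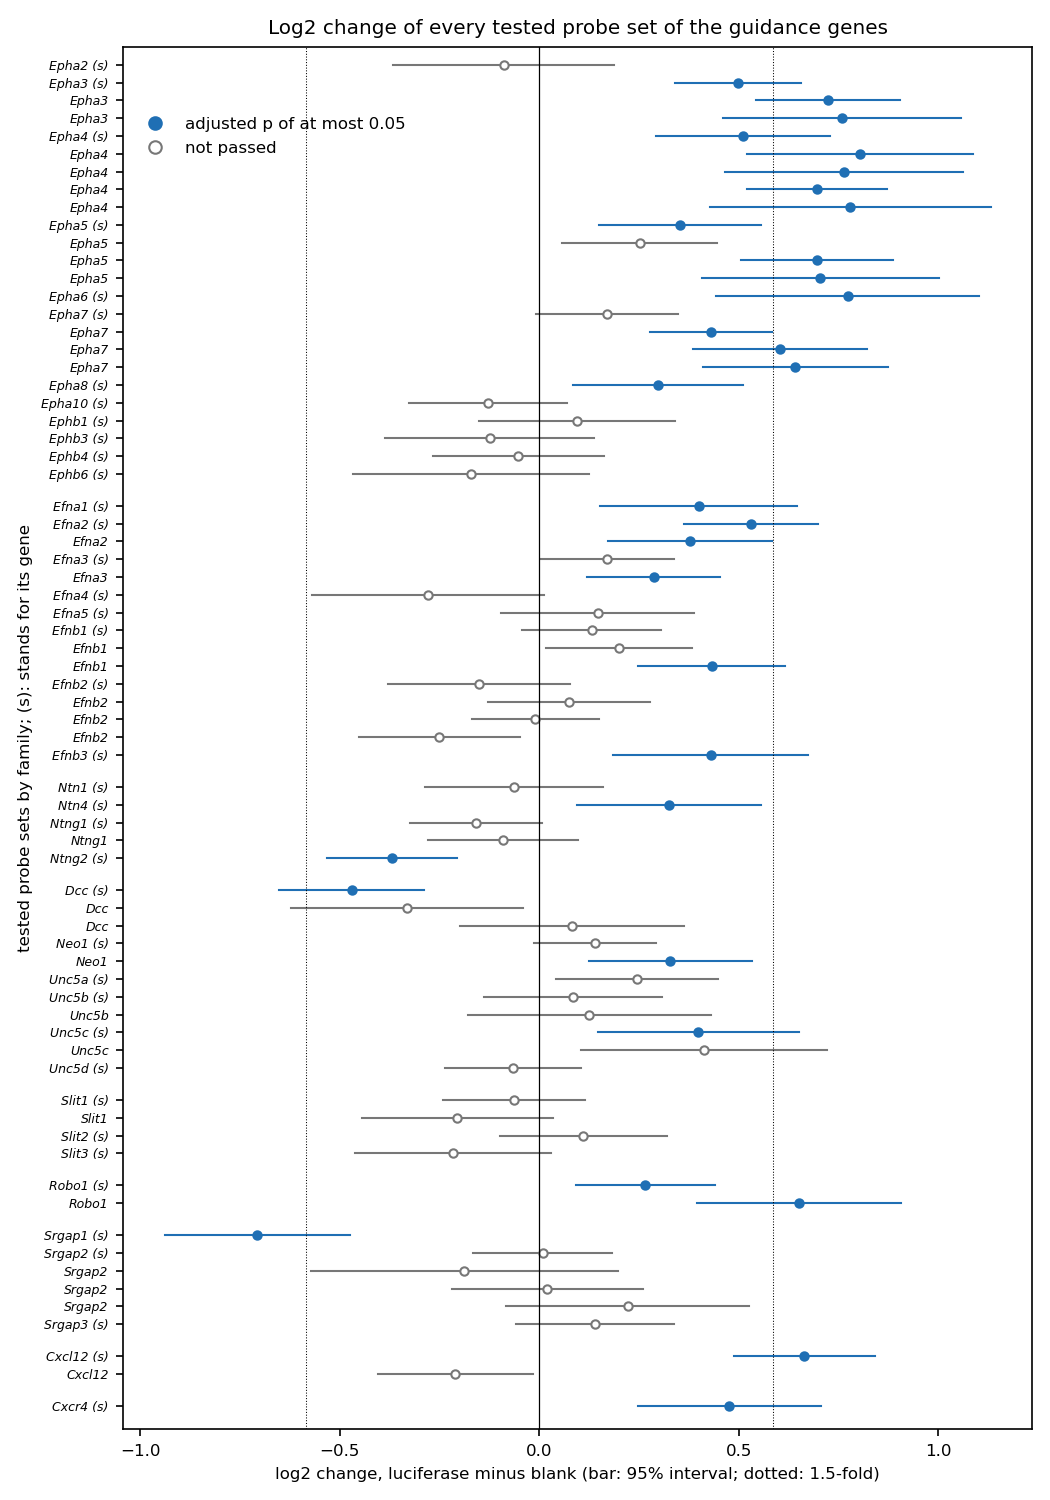
Log2 change, luciferase minus blank, of all 70 tested probe sets by family, with 95% intervals (4 luciferase and 3 blank arrays); filled points passed an adjusted p of at most 0.05, dotted lines mark 1.5-fold, and (s) marks the probe set that stands for its gene. Filled points to the right crowd in the EphA receptors, and *Srgap1* lies farthest to the left.

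Probe sets of one gene mostly moved together. Of 17 genes with several tested probe sets, 13 had a single sign, and 4 (*Efnb2*, *Dcc*, *Srgap2* and *Cxcl12*) had both. In 11 of the 17 the brightest probe set had the smallest absolute change, and the share over all genes was not counted. By the brightest probe set, 2 genes were higher by 1.5-fold or more (2.6% of all genes). Counting any probe set, 17 of the 39 genes were higher on at least 1 (21.7% of all genes were by the same rule), and 7 were higher by 1.5-fold or more on at least 1 (4.09% of all genes), of which 6 encode receptors (*Epha3*, *Epha4*, *Epha5*, *Epha6*, *Epha7* and *Robo1*). Over all 70 probe sets, 29 were higher, 3 lower, and 38 failed to pass (16.2% and 8.26% of all probe sets were higher and lower).

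In 14 genes every luciferase array lay above every blank array (24.5% of all genes did), and in 4 every one lay below (13% of all genes). Over the 13 higher genes, which were taken by this same difference, the median level was 137.1%, 130.4%, 141.5% and 132.4% of the blank mean on the luciferase arrays, against 98.5%, 97.3% and 106.0% on the blank arrays. Single genes among them ranged from 108.9% to 167.3% on luciferase replicate 1 and from 118.1% to 208.4% on luciferase replicate 4. The test favours genes with little spread within a group, so these medians do not show how alike the arrays are. Over all 39 genes, blank replicate 7 was the highest blank array in 23. The coefficient of variation had a median of 7.78% over the genes in luciferase neurons and 6.71% in blank neurons.

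Other genes of these pathways, from a list of 60 effectors and modulators of which 52 were tested, moved in both directions. Of these 8 were higher (15.4%, against 16.9% of all genes), 5 were lower (9.62%, against 8.55%) and 39 did not pass, with a median log2 change of -0.01. On the probe set of highest level, 3 passed at 1.5-fold or more, and all 3 were lower. Over all genes, 1.46% were lower and 2.6% higher by this measure. *Limk1*, the kinase that inactivates cofilin, read 199, 211, 206 and 189 in luciferase neurons and 447, 356 and 429 in blank neurons (log2 change -1.02, adjusted p = 2.8e-04 from limma). *Sdc3*, a heparan sulfate proteoglycan of axons, read 1316, 1433, 1419 and 1449 in luciferase neurons and 2619, 2430.3 and 3045 in blank neurons (log2 change -0.94, adjusted p = 3.5e-04 from limma). *Dscam*, an adhesion molecule that also binds netrin-1, read 239, 278, 286 and 300.03 in luciferase neurons and 478, 421 and 463 in blank neurons (log2 change -0.72, adjusted p = 0.0013 from limma). On these probe sets the groups are far apart in all 3, and blank neurons were 2.03-fold, 1.91-fold and 1.65-fold higher. The second tested probe set of *Limk1* passed too (log2 change -0.56, adjusted p = 0.0039 from limma). For *Sdc3* another passed at -1.25 (adjusted p = 1.8e-04 from limma), while one at -0.33 had overlapping groups (adjusted p = 0.11 from limma). For *Dscam* another passed at -0.45 (adjusted p = 0.018 from limma), while those at -0.25 and -0.19 had overlapping groups (0.236 and 0.406). Other probe sets of the list passed at 1.5-fold or more in both directions. *Rock1*, *Flrt3*, *Lrrc4c* and *Myo10* were higher on such a probe set, by 1.52-fold to 1.66-fold. *Arhgef7* was lower on one (log2 change -1.14).

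*Ngef*, which encodes ephexin-1, a protein that EphA receptors signal through, was lower as well, with 1001, 1078, 1094 and 1019.8 in luciferase neurons and 1429, 1294 and 1621 in blank neurons (log2 change -0.46, adjusted p = 0.0074 from limma). The lower genes of the list thus include a partner of the receptors that were higher. *Flrt3*, an adhesion molecule that binds Robo1 and UNC5 proteins, was higher by 0.53 on the log2 scale (adjusted p = 0.002 from limma), and *Dock1*, a Rac exchange factor downstream of DCC, by 0.44 (adjusted p = 0.0083 from limma). *Ackr3*, the decoy receptor that takes up CXCL12, read 109.7, 101, 106 and 97.5 in luciferase neurons and 67.1, 72.6 and 87.3 in blank neurons (log2 change 0.46, adjusted p = 0.011 from limma), and *Dscaml1*, a relative of *Dscam*, was higher by 0.42.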

How the data were processed

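RNA of 4 luciferase and 3 blank cultures was measured on 7 expression arrays, 1 per culture. The authors normalized the scans with RMA and deposited each probe set as an intensity on a linear scale (4.69 to 23763); which arrays were normalized together and the version used are not given in the sources used here. Groups came from the treatment given per sample in the labels. Columns of other samples numbered 0.

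The blank columns begin 1 probe set too low in that table, and they were shifted up by 1. Over 45036 probe sets without controls, Pearson's r of the log2 group means was 0.9953 after this shift and 0.4211 as deposited. It was 0.3759 to 0.4208 with the other shifts tried (45033 to 45036 probe sets).

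Of 45101 probe sets, 64 controls and 2441 with _x in their names were left out, and 22748 of the remaining 42596 reached 50 on at least 1 array. Log2 intensities were tested with limma 3.58.1 in R 4.3.3 as luciferase minus blank without covariates, using lmFit and eBayes, and p-values were adjusted by Benjamini-Hochberg across all 22748. The larger changes are those that also reached 1.5-fold, as in the methods. Genes were named from the array's annotation where a probe set had 1 gene (34945 had 1, 932 several and 9160 none). The probe set of highest mean level over the 7 arrays stands for a gene. Values on every array are given for each gene of the list with a probe set past the adjusted p, and for up to 4 effectors in each direction. Members, lists and tests were chosen with earlier results of these data known. The fit was tested on simulated data. The number of arrays limits the precision, and the median moderated SD was 0.12 on the log2 scale. Over the tested probe sets, median levels were 237 to 241 on luciferase arrays and 216 to 235 on blank arrays, and pairs within luciferase had r of at least 0.9928, pairs within blank 0.9885, and pairs between groups at most 0.9852. The labels and the methods name different RNA extraction reagents. Promoters came from RefSeq (GRCm38.p6) by gene symbol.

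Alternatives comprised a level minimum of 100 instead of 50, one of 50 on 3 arrays, no minimum, quantile normalization, centring on the median, trend and robust in eBayes, array weights, log2(value + 16), keeping _x probe sets, the mean over a gene's probe sets, and leaving out each array. The mean over a gene's probe sets bears only on counts of genes, which are not given here, and is not among the alternatives for single probe sets.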

Additional observations from a re-analysis of the deposited data

Results flagged for a closer look

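Among the 39 genes, the luciferase arrays were checked for a single array far from the other 3, by the gap to its nearest neighbour over the whole range. This was so in 2 genes, where chance gives about 1 in 20. In *Cxcr4* luciferase replicate 1 read 63.2 and the others 48.8 to 50.03, a gap of 0.915 of the range, and the gene was still higher without it (luciferase SD 6.93, blank SD 1.82). In *Srgap3* luciferase replicate 3 read 1672 and the others 1552 to 1570.0, a gap of 0.848 of the range, beside a blank SD of 164.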

How the results depend on the processing

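The number of higher genes, 13 as reported, was 8 after median centring of the arrays and ran from 6 (without blank replicate 6) to 12 (without blank replicate 7) when arrays were left out one at a time. It was 9 with quantile normalization, 10 with no filter on level and 18 with array weights, where 11.4%, 8.49% and 29.6% of all genes were higher. A level minimum of 100 gave 11 higher genes, and 50 on 3 arrays gave 12, where 19.9% and 17.7% of all genes were higher. The number of lower genes, 3 as reported, was 5 with quantile normalization and 5 with centring (12.5% and 15.8% of all genes lower), and the cause was not tested. The genes gained there were *Ntng1* and *Slit3*. Of probe sets past the test at 1.5-fold or more over the whole table, 69.2% were higher as reported, 55.2% with quantile normalization and 43.8% with centring. The median log2 change of all probe sets was 0.056 as reported, 0.00020 with quantile normalization and -0.040 with centring. Of 16 genes past the test, 9 passed under every alternative that tested them (*Epha3*, *Epha4*, *Epha6*, *Efna2*, *Cxcl12*, *Cxcr4*, *Dcc*, *Ntng2* and *Srgap1*), and of 32 probe sets 22 did; *Cxcr4*, *Efna1* and *Ntng2* were not tested under some stricter filters. Over 1106 comparisons of a probe set with an alternative, 1013 kept the side of the threshold, 64 lost it, 29 gained it and 0 passed in the opposite direction. Dim probe sets such as *Cxcr4*, *Efna1* and *Ntng2* lie near the level limit of 50, where intensity limits what can be read from them. No paired analysis was possible because the replicate numbers of the luciferase arrays (1 to 4) and blank arrays (5 to 7) are not shared.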
